A study of Homo sapiens with 8 samples.

Results

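The SR and hnRNP splicing factors were followed through all 8 libraries of a study of Lip-1 in K562 cells. The members were every row of the deposited gene count table whose symbol is SRSF followed by a number or starts with HNRNP, which gave 37 of 19447 genes, 12 SRSF and 25 HNRNP. The rule uses symbols and no measured value, although it was set with earlier results of these data known. Of the 37 genes, 32 (11 SRSF and 21 HNRNP) had enough counts to be tested. K562 is an established human line from a chronic myeloid leukaemia that carries BCR-ABL1, and the cells are labelled WT, grown in RPMI medium with fetal bovine serum. The controls (4 libraries, replicates 1 to 4) received no Lip-1 and are labelled Day 0, with no vehicle named. The treated cells received Lip-1 for 24 h and are labelled Day 1, at 10 µM in replicates 2 to 4 (3 libraries) and at 20 µM in replicate 1 (1 library). The labels leave the name Lip-1 as it is; it commonly stands for liproxstatin-1, a compound that blocks lipid peroxidation and thereby ferroptosis. Because all controls are Day 0 and all treated libraries Day 1, effects of treatment and of day cannot be told apart. Nothing in the labels says that the replicates came from separate cultures, so p-values measure the spread between these libraries, which may be technical.

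SR proteins pair RNA recognition motifs with a tail rich in arginine and serine, bind exonic enhancers and recruit the spliceosome to nearby splice sites. The hnRNP proteins coat nascent transcripts, often bind silencers in exons and introns, and also take part in RNA export, stability and translation. Many genes of both families limit their own mRNA by splicing in a poison exon that sends the transcript to nonsense-mediated decay.

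Total counts ran from 71151415 to 141307169 per library (124240276 at 20 µM), and 2958 entries of the table stand at 4 counts but 401 at 1, so that 1 count need not be 1 read. Marker genes mostly fitted the labelled line. All 9 erythroid and K562 markers, globins and GATA1 among them, exceeded 1 CPM (counts scaled to a common library total) in at least some libraries. Their summed level was 5200 to 8040 CPM in the controls, 4320 to 5090 at 10 µM and 3110 at 20 µM. Markers of lymphocytes (2 of 5 above 1 CPM in any library, summed level 14.3 to 17.1, 13.4 to 22.4 and 6.19 CPM at 0, 10 and 20 µM), monocytes and granulocytes (2 of 5, 19.4 to 125, 18.8 to 98.5 and 19.7), epithelium (1 of 4, 28.0 to 60.2, 29.3 to 41.7 and 17.1) and fibroblasts (2 of 5, 1.09 to 4.24, 1.24 to 3.33 and 10.2) were low. ELANE was at 0 in all 8 libraries. LYZ, a marker of monocytes and granulocytes, stood at 122, 125 and 98.2 CPM in control 1, control 4 and 10 µM replicate 4. It was at 18.2 to 25.7 CPM in the other libraries. The part of these levels in the results was not tested.

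The promoters of 4 members are shown because these genes mark the ends of the response described below: HNRNPAB had the largest fall of any member at 10 µM, SRSF7 and HNRNPD the largest falls passing the test from 10 to 20 µM, and HNRNPH2 was the member that rose. The sequences come from RefSeq (GRCh38.p14), run 5′ to 3′ on the gene's strand, and cover 250 bases before and 50 after the annotated start. Capitals mark matches, on either strand, to the TATA box, TATAAA; to CCAAT, which NF-Y binds; to the GC box of SP1 family factors, GGGCGGG; to the E-box, CACGTG; and to an ETS site, CCGGAAGT.
HNRNPAB, chr5:178204283-178204582, plus strand: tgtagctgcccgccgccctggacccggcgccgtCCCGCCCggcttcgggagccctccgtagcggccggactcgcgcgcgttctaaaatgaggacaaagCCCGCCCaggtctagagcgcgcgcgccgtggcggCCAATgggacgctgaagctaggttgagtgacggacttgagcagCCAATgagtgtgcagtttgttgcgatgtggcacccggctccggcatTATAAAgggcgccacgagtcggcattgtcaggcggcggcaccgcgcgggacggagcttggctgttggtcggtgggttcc
HNRNPD, chr4:82373942-82374241, minus strand: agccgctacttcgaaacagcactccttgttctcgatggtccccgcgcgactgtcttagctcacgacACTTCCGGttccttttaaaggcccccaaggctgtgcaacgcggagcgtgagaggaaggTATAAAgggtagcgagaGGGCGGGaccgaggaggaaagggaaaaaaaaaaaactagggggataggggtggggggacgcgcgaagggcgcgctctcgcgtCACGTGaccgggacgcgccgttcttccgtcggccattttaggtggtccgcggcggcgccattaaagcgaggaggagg
SRSF7, chr2:38751312-38751611, minus strand, the more downstream annotated start: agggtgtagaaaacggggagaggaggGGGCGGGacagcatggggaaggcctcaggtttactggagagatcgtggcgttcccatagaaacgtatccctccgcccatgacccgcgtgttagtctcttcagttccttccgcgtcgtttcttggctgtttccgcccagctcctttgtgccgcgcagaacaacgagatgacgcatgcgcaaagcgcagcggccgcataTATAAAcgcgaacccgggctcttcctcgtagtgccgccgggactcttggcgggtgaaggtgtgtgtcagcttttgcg
HNRNPH2, chrX:101407972-101408271, plus strand: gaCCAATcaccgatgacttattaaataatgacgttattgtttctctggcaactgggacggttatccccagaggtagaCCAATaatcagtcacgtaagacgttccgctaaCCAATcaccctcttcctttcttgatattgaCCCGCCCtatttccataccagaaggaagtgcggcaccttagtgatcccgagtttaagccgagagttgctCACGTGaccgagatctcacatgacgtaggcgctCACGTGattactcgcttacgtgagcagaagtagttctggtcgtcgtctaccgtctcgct

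The HNRNPAB, HNRNPD and SRSF7 windows each hold a TATAAA and a GC box, whereas that of HNRNPH2 holds no TATAAA and carries CCAAT, E-box and GC box matches. RefSeq start windows were matched for 34 of the 37 members, all but SRSF2, HNRNPA1 and HNRNPCL3, and gave 48 windows. Their median GC content was 64.0%, against 58.7% in all 35116 promoter windows, and their median number of CpG dinucleotides was 29, against 14. CCAAT stood in 24 of the 48 member windows and in 34.6% of all windows. GGGCGGG stood in 47.9% against 33.1%, and CACGTG in 16.7% against 7.26%. TATAAA (12.5% against 11.5%) and CCGGAAGT (6.25% against 4.14%) were nearer the share in all windows. The letters TGACGTCA (a CRE) were in 0 of the 48 windows and in 1.85% of all. No motif overlapped another in the printed sequences, and a match is a run of letters, not a bound site.

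Compared per length, as TPM (counts over exon length, scaled to a common sum), HNRNPA1 was the most abundant member in the controls at 2142 ± 171.3 TPM (SD, n = 4), rank 57 of the genes with a length. HNRNPK (1263 ± 136.6) and HNRNPA2B1 (1205 ± 224.9) came next and were closer to each other than their SDs. HNRNPAB (918.9 ± 68.1), HNRNPM (813.5 ± 20.2) and HNRNPD (779.3 ± 94.0) followed. HNRNPAB lay above HNRNPM by more than either SD, while HNRNPM and HNRNPD differed by less than the SD of HNRNPD. SRSF1 (713.9 ± 70.0) and SRSF2 (693.1 ± 9.78) led the SR genes and differed by less than the SD of SRSF1. The lowest tested members were HNRNPLL, a regulator of CD45 splicing in lymphocytes, at 45.4 ± 11.4 TPM, and SRSF8, an intronless copy of SRSF2, at 59.1 ± 2.53 TPM. The 5 members left out of the tests were SRSF12, with 0 to 8 counts per library, and the HNRNPC-like genes HNRNPCL1, HNRNPCL3 and HNRNPCL4, with 0 to 4 counts, and HNRNPCL2, at 0 in all 8. A library at 0 allows up to 3 counts, 0.0212 to 0.0422 CPM here, counting error only, so these genes were not detectable above that depth in most libraries.

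The families as a whole took a smaller share of the counts in treated cells, and a smaller share still at 20 µM. SRSF genes held 0.389%, 0.414%, 0.422% and 0.402% of all counts in controls 1 to 4, 0.358%, 0.373% and 0.343% in 10 µM replicates 2 to 4, and 0.227% at 20 µM. HNRNP genes held 1.64%, 1.94%, 1.89% and 1.76% in the controls, 1.59%, 1.62% and 1.55% at 10 µM, and 0.914% at 20 µM. Neither sum overlapped between controls and 10 µM, and the 20 µM library lay below all others for both. In bulk RNA, fewer cells of a type and less of an RNA per cell cannot be told apart, and a share of counts says nothing of the total RNA in a cell.

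From here levels are CPM with the library total scaled by TMM (trimmed mean of M values), and tests are edgeR's two-sided quasi-likelihood test with Benjamini-Hochberg adjustment over all tested genes at 0.05. In 17 of the 32 tested members (6 SRSF and 11 HNRNP) each 10 µM library lay below each control, a pattern met by 15.5% of all 14857 tested genes. Each 10 µM library lay above each control in 1 member, HNRNPH2, against 15.8% of all genes. The steps were ordered without overlap, control above 10 µM above 20 µM, in 15 members (9.65% of all genes) and in the upward order in 0 (8.55%). The 20 µM library lay below each 10 µM library in 28 members (35.4% of all genes) and below each control in 29 (33.7%). Without the TMM factor, an alternative chosen after the data were seen, these counts were 14, 2 (HNRNPH2 and HNRNPUL2), 13, 29 and 28 for the downward 10 µM, upward 10 µM, ordered, 20 against 10 µM and 20 µM against control patterns. The shares of all genes above are for TMM-scaled levels and do not apply to the counts without the factor. The median log2 difference of the members from the control mean was -0.27, -0.21 and -0.37 in 10 µM replicates 2, 3 and 4 and -0.90 at 20 µM, while the median of all genes stood at 0.03 to 0.08 in these libraries.

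**Figure D1:**
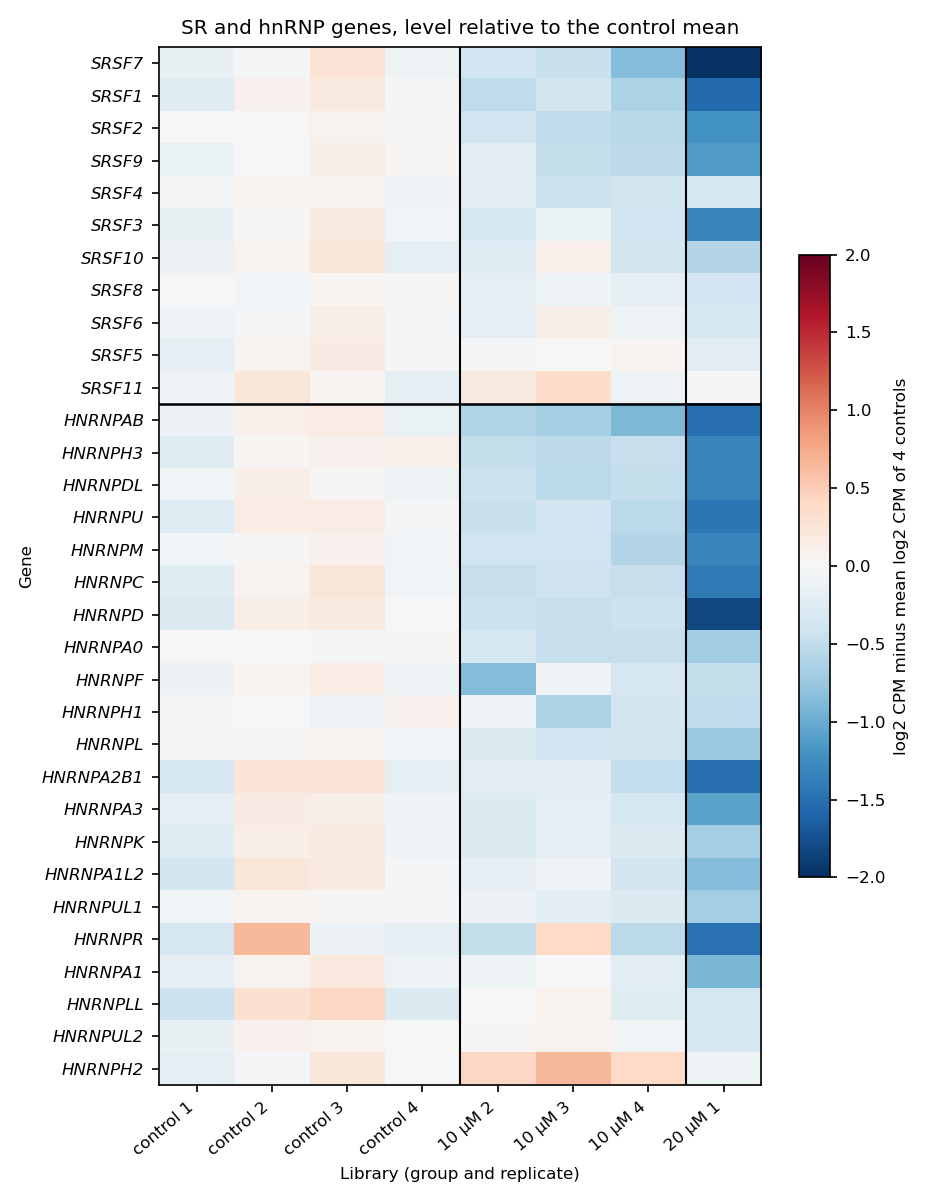
Level of each tested SR gene (above the line) and hnRNP gene (below it) in each library, as log2 CPM minus the mean log2 CPM of the 4 controls. Blue is lower and red higher; the 20 µM column is darkest, and HNRNPH2 is the row that is red at 10 µM in all 3 libraries.

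At 10 µM against control, 14 of the 32 members were lower and 1 higher, where 9.79% of all 14857 genes were lower and 9.34% higher. Members are abundant, and among the 6080 genes with a mean CPM at or above the lowest tested member (HNRNPA1L2) 19.9% were lower and 10.6% higher. These genes share a lower bound with the members and are not matched to them in level. The median log2 fold change was -0.34 for the members and 0.05 for all genes. With the replicate number as a block, 21 members were lower and 1 higher, and the share of lower genes rose as well, to 15.2% of all genes and 29.6% of the abundant ones. Leaving out control 2, 3 or 4 gave counts of 6, 7 and 7, leaving out 10 µM replicate 3 or 4 gave 5 and 7, and 15 or 16 in the other leave-one-out fits. No share over all genes stands beside these leave-one-out counts. Controls and treated libraries are named with letters (controls 1 and 4, 20 µM replicate 1, 10 µM replicate 4) or digits, a naming pattern that the labels do not call a batch. Within the digit names the members' median log2 difference at 10 µM was -0.38, with 26 of 32 below both controls (27.4% of all genes) and 1 above both (32.3%). Within the letter names, with a single 10 µM library, it was -0.28, with 26 of 32 below both controls (36.5% of all genes) and 3 above both (43.1%).

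Among the SR genes, SRSF1, SRSF2, SRSF4, SRSF7 and SRSF9 fell at 10 µM, and SRSF1, SRSF2, SRSF3, SRSF7 and SRSF9 fell further from 10 to 20 µM. SRSF1, the factor first known as SF2/ASF and an oncogene when overproduced, lies on chromosome 17 (hg38, 58003360 to 58007346). SRSF1 stood at 727.0, 913.7, 968.4 and 839.6 CPM in the controls, 601.8, 661.2 and 550.8 at 10 µM and 290.9 at 20 µM. The groups did not overlap, and the 10 µM mean was 70.1% and the 20 µM level 33.7% of the control mean. The log2 fold change of SRSF1 was -0.52 (SE 0.12, edgeR adjusted p = 0.0207) at 10 µM and -1.07 (SE 0.20, adjusted p = 0.0048) from 10 to 20 µM. Its 10 µM call was lost without control 2, control 3 or 10 µM replicate 4.

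SRSF2 (SC35, the SR protein recurrently mutated in myelodysplastic syndromes, chromosome 17, 76734115 to 76737374) fell in both steps. It stood at 759.1, 756.4, 799.9 and 739.7 CPM in the controls, 577.8, 536.8 and 522.4 at 10 µM and 330.6 at 20 µM. Each group lay clear of the next, and the gap between control and 10 µM was several times the SD of the controls (763.8 ± 25.5 against 545.7 ± 28.7 CPM, SD, n = 4 and 3). Its log2 fold change was -0.49 (SE 0.09, edgeR adjusted p = 0.00731) and then -0.74 (SE 0.14, adjusted p = 0.00508), and the 10 µM call held in all 17 alternatives. MFSD11, which overlaps SRSF2 on the opposite strand, moved the other way, from 26.5 ± 2.72 CPM without Lip-1 (SD, n = 4) to 41.9 ± 1.67 at 10 µM (n = 3), with 37.3 at 20 µM. The strand used in counting is not given in the sources used here, so reads of such pairs cannot be told apart.

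SRSF3 and SRSF7 are the small SR proteins that also bind the export receptor NXF1. SRSF7 (chromosome 2, 38743599 to 38751494) stood at 299.7, 329.5, 403.1 and 312.6 CPM in the controls, 256.6, 245.6 and 182.1 at 10 µM and 85.2 at 20 µM. The 20 µM level was 25.3% of the control mean, the lowest of the tested members. In log2 terms the change was -0.56 (SE 0.15, edgeR adjusted p = 0.0328) at 10 µM and -1.44 (SE 0.25, adjusted p = 0.00373) from 10 to 20 µM. The 10 µM call of SRSF7 was lost without control 2, 3 or 4 or 10 µM replicate 3 or 4, while the step to 20 µM kept its call in all 15 alternatives. SRSF3 stood at 594.2, 671.4, 749.4 and 636.0 CPM in the controls, 522.6, 605.3 and 506.4 at 10 µM and 261.8 at 20 µM. At 10 µM it overlapped the controls and did not pass (log2 fold change -0.29, SE 0.11, edgeR adjusted p = 0.111), though it passed with the replicate block (-0.34, adjusted p = 0.0102). SRSF3 then fell from 10 to 20 µM by 1.08 on the log2 scale (SE 0.18, edgeR adjusted p = 0.00349). The count ratio of SRSF7 to SRSF3 was 0.491 to 0.538 in the controls, 0.491, 0.406 and 0.36 in 10 µM replicates 2 to 4 and 0.325 at 20 µM.

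SRSF9 and SRSF4 are SR proteins with a pair of RNA recognition motifs, like SRSF1. SRSF9 stood at 242.3, 264.4, 288.0 and 269.7 CPM in the controls, 229.1, 190.8 and 184.5 at 10 µM and 120.9 at 20 µM. In edgeR's fit the log2 fold change was -0.41 (SE 0.11, edgeR adjusted p = 0.0348) and then -0.76 (SE 0.18, adjusted p = 0.0129), the latter not called with the block (-0.57, adjusted p = 0.0979). SRSF4 stood at 193.9, 208.2, 204.6 and 190.4 CPM in the controls, 170.8, 147.6 and 153.9 at 10 µM and 156.0 at 20 µM. It fell at 10 µM (log2 fold change -0.34, SE 0.09, edgeR adjusted p = 0.0336), and the 20 µM library lay among the 10 µM libraries (-0.03, SE 0.14, adjusted p = 0.894). The 10 µM calls of SRSF9 and SRSF4 were each lost without control 2, 3 or 4 or 10 µM replicate 3 or 4.

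The other tested SR genes, SRSF5, SRSF6, SRSF8, SRSF10 (the splicing repressor activated by dephosphorylation) and SRSF11, passed in neither step. Their log2 fold changes ran from -0.17 (SRSF10) to 0.15 (SRSF11) at 10 µM, with edgeR adjusted p-values from 0.235 to 0.986, and from -0.44 (SRSF10) to -0.22 (SRSF11) from 10 to 20 µM, with adjusted p-values from 0.19 to 0.494. SRSF5 had means of 238.5 ± 24.7 CPM (control, SD, n = 4) and 240.0 ± 7.64 CPM (10 µM, n = 3) and a level of 202.7 at 20 µM. SRSF11 was at 305.4 ± 39.5, 338.9 ± 55.8 and 294.4 CPM in the same groups. All 3 libraries at 10 µM lay below each control for SRSF8 (78.5 to 84.1 against 86.2 to 91.5 CPM in the controls), a gap too small to pass (log2 fold change -0.15, SE 0.08, edgeR adjusted p = 0.235). The SR genes thus spread from 25.3% of the control mean for SRSF7 to 96.4% for SRSF11 at 20 µM.

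**Figure D2:**
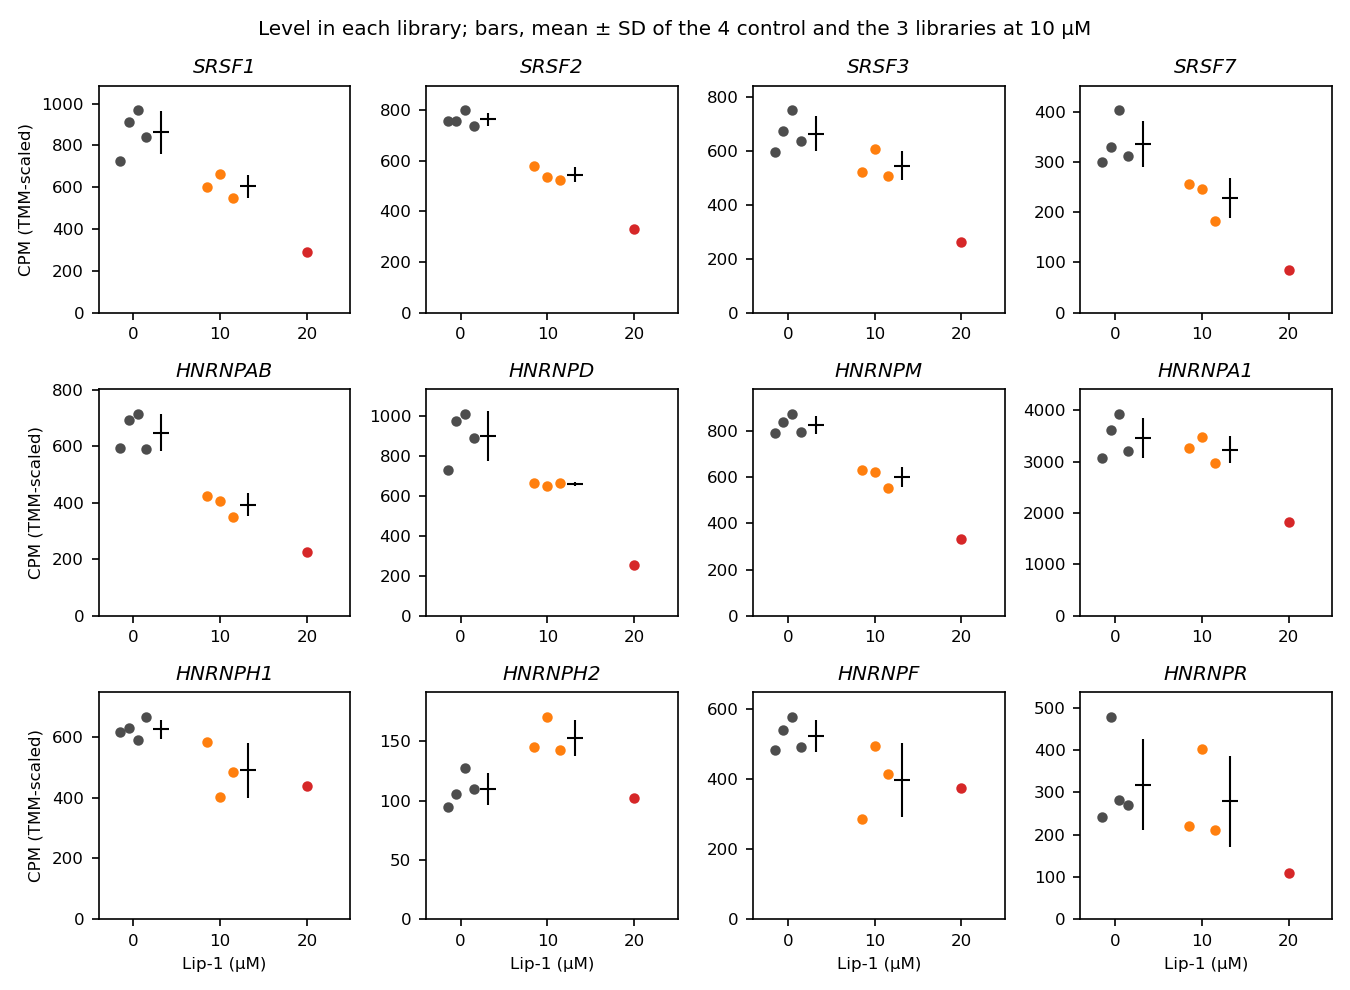
CPM of 12 members in each library against the Lip-1 dose in µM, with the mean ± SD of the 4 controls and of the 3 libraries at 10 µM beside the points; each axis starts at 0. SRSF1, SRSF2, SRSF7, HNRNPAB, HNRNPD and HNRNPM step down without overlap, HNRNPH2 is highest at 10 µM, and HNRNPR has 1 high library among the controls and 1 at 10 µM.

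The hnRNP A/B genes differed in which step was called. HNRNPAB, also known as CBF-A, lies on chromosome 5 (178204507 to 178211163). HNRNPAB stood at 593.1, 692.4, 715.9 and 591.0 CPM in the controls, 425.2, 405.7 and 348.0 at 10 µM and 227.6 at 20 µM. All 10 µM libraries lay far below the lowest control, and the mean was 60.6% of the control mean. The fitted log2 change was -0.73 (SE 0.12, edgeR adjusted p = 0.00492) at 10 µM, called in all 17 alternatives, and -0.81 (SE 0.18, adjusted p = 0.0121) from 10 to 20 µM, called in all 15. PHYKPL, on the opposite strand over part of HNRNPAB, was at 13.0 ± 1.60 CPM without Lip-1 (SD, n = 4), at 15.1 ± 2.37 with 10 µM (n = 3) and at 35.6 with 20 µM. HNRNPA0, an intronless gene whose protein binds AU-rich mRNAs, had the tightest controls, at 368.7, 368.2, 361.6 and 372.3 CPM, against 294.9, 266.5 and 268.4 at 10 µM and 226.7 at 20 µM. It fell at 10 µM (log2 fold change -0.41, SE 0.09, edgeR adjusted p = 0.0124, lost without 10 µM replicate 3), and the step to 20 µM did not pass (-0.31, SE 0.13, adjusted p = 0.122).

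HNRNPA1, HNRNPA2B1 and HNRNPA3, the core hnRNP A proteins that bind UAG-containing silencers, passed from 10 to 20 µM and not at 10 µM. HNRNPA1 stood at 3069, 3620, 3937 and 3214 CPM in the controls, 3258, 3477 and 2965 at 10 µM and 1819 at 20 µM. The 10 µM libraries lay within or near the control range, and the 20 µM level was 52.6% of the control mean. Its log2 fold change was -0.10 (SE 0.11, edgeR adjusted p = 0.593) and then -0.85 (SE 0.18, adjusted p = 0.00918). HNRNPA2B1 stood at 2098, 3168, 3217 and 2346 CPM in the controls, 2284, 2305 and 1901 at 10 µM and 936.0 at 20 µM. Its controls fell into a higher pair (2 and 3) and a lower pair (1 and 4), which the digit and letter names follow. This was not particular to HNRNPA2B1. The members' median log2 difference from the control mean was 0.06 and 0.14 in controls 2 and 3 and -0.15 and -0.05 in controls 1 and 4. The 20 µM library has a letter name, while 10 µM replicates 2 and 3 have digit names, and the part of the naming was not tested. For HNRNPA2B1 the log2 change was -0.33 (SE 0.17, edgeR adjusted p = 0.211) and then -1.23 (SE 0.27, adjusted p = 0.0107), and at 10 µM it passed with the block (-0.42, adjusted p = 0.000914). HNRNPA3 went from a control mean of 1379 ± 165.8 CPM (n = 4) to 1139 ± 59.9 with 10 µM (n = 3) and 651.4 with 20 µM. The log2 fold change was -0.28 (SE 0.11, edgeR adjusted p = 0.122; -0.34 and 0.00557 with the block) and then -0.82 (SE 0.18, adjusted p = 0.0104). HNRNPA1L2, a near copy of HNRNPA1 whose reads the counting could have split, stood at 38.7 ± 7.06, 33.2 ± 3.45 and 20.8 CPM and passed in neither step (adjusted p = 0.376, or 0.0464 with the block, and 0.0728).

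HNRNPD (AUF1) binds AU-rich elements and promotes mRNA decay, and HNRNPDL, its neighbour on chromosome 4, encodes a close relative. HNRNPD stood at 729.4, 973.0, 1012 and 887.5 CPM in the controls, 664.9, 649.5 and 662.0 at 10 µM and 253.7 at 20 µM. The 10 µM libraries were tightly grouped below all controls, and the 20 µM level was 28.2% of the control mean. In log2 terms the change was -0.45 (SE 0.12, edgeR adjusted p = 0.0326) and then -1.40 (SE 0.20, adjusted p = 0.00178). HNRNPDL stood at 556.8, 633.3, 590.5 and 537.5 CPM in the controls, 428.1, 396.3 and 415.6 at 10 µM and 229.1 at 20 µM. In edgeR's fit the log2 fold change was -0.49 (SE 0.10, edgeR adjusted p = 0.0094), called in all 17 alternatives, and then -0.87 (SE 0.15, adjusted p = 0.00373). The count ratio of HNRNPDL to HNRNPD was 0.584 to 0.763 in the controls, 0.610 to 0.644 at 10 µM and 0.903 at 20 µM, so the ratio lay outside the range of the other libraries at 20 µM alone. HNRNPD lost its 10 µM call without control 2, 3 or 4 or 10 µM replicate 3 or 4.

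HNRNPC, HNRNPM, HNRNPU, HNRNPH3 and HNRNPL fell in both steps. HNRNPC, which binds runs of U and guards against exonization of Alu elements, stood at 1192, 1472, 1662 and 1350 CPM in the controls, 1027, 1061 and 1019 at 10 µM and 529.6 at 20 µM. Its log2 fold change was -0.46 (SE 0.12, edgeR adjusted p = 0.0299) and then -0.99 (SE 0.19, adjusted p = 0.00638). HNRNPM, a splicing regulator that binds GU-rich motifs, stood at 791.4, 839.9, 875.0 and 795.1 CPM in the controls, 628.7, 624.1 and 552.3 at 10 µM and 334.2 at 20 µM. The groups were well apart, and the log2 change was -0.46 (SE 0.09, edgeR adjusted p = 0.0115), called in all 17 alternatives, and then -0.87 (SE 0.15, adjusted p = 0.00361). HNRNPU, the scaffold attachment factor that organises chromatin and regulates splicing, stood at 1513, 1995, 1990 and 1758 CPM in the controls, 1320, 1386 and 1237 at 10 µM and 663.6 at 20 µM. On the log2 scale the fold change was -0.47 (SE 0.12, edgeR adjusted p = 0.0258) and then -1.004 (SE 0.19, adjusted p = 0.00548). COX20, which overlaps HNRNPU on the opposite strand, had means of 130.9 ± 12.6 CPM (control, n = 4) and 118.5 ± 11.0 CPM (10 µM, n = 3) and a level of 83.0 at 20 µM.

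HNRNPH3, a smaller relative of HNRNPH1, stood at 310.4, 378.8, 391.2 and 394.8 CPM in the controls, 263.7, 256.1 and 268.1 at 10 µM and 145.4 at 20 µM. The log2 fold change was -0.49 (SE 0.11, edgeR adjusted p = 0.0153) and then -0.87 (SE 0.17, adjusted p = 0.00667, or -0.55 and 0.0623 with the block). HNRNPL, which binds CA repeats, stood at 543.0, 563.6, 577.7 and 532.2 CPM in the controls, 452.6, 425.3 and 429.4 at 10 µM and 329.9 at 20 µM. Its groups did not overlap, with smaller steps of -0.35 (SE 0.09, edgeR adjusted p = 0.0226) and -0.42 (SE 0.13, adjusted p = 0.0438, or -0.38 and 0.164 with the block) on the log2 scale. The 10 µM calls of HNRNPC, HNRNPU and HNRNPL were each lost without control 2, 3 or 4 or 10 µM replicate 3 or 4, and that of HNRNPH3 without 10 µM replicate 3. From 10 to 20 µM HNRNPL kept its call in 7 of 15 alternatives. That call was lost without control 2, 3 or 4 or 10 µM replicate 2 or 3, among others. HNRNPUL1, a relative of HNRNPU, stood at 398.3, 433.9, 423.7 and 404.7 CPM in the controls, 381.7, 359.9 and 338.7 at 10 µM and 259.7 at 20 µM. It passed in the step from 10 to 20 µM (log2 fold change -0.49, SE 0.14, edgeR adjusted p = 0.0299, or -0.41 and 0.145 with the block) and not at 10 µM (-0.21, SE 0.09, adjusted p = 0.14). The call of HNRNPUL1 was also lost without control 4 or 10 µM replicate 3.

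HNRNPH2, an X-linked gene (101408295 to 101414133) whose protein is a near copy of the HNRNPH1 protein, was the exception. It stood at 94.9, 106.0, 127.7 and 110.2 CPM in the controls, 145.0, 170.9 and 143.2 at 10 µM and 102.0 at 20 µM. It was above every control in 3 of 3 libraries at 10 µM and back within the control range at 20 µM. In log2 terms the change was 0.48 (SE 0.12, edgeR adjusted p = 0.0272) at 10 µM and -0.60 (SE 0.19, adjusted p = 0.0466) from 10 to 20 µM. The rise lost its call without control 2, control 4 or 10 µM replicate 3. The fall lost it with the block (-0.33, adjusted p = 0.309) and without control 2, control 4 or 10 µM replicate 2 or 3. A readthrough entry, RPL36A-HNRNPH2, covers HNRNPH2 on the same strand and held 21.4, 0, 3.42 and 0 CPM in controls 1 to 4, 0 in all 3 libraries at 10 µM and 7.6 at 20 µM. With both entries summed, the levels were 116.3, 106.0, 131.1 and 110.2 CPM in the controls, 145.0, 170.9 and 143.2 at 10 µM and 109.6 at 20 µM, so the groups still did not overlap at 10 µM.

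HNRNPH1, by contrast, stood at 616.0, 629.7, 591.3 and 666.5 CPM in the controls, 582.5, 402.5 and 485.2 at 10 µM and 438.8 at 20 µM. All 10 µM libraries lay below all controls, but they spread widely and the gene did not pass (log2 fold change -0.36, SE 0.13, edgeR adjusted p = 0.0869), except with the block (-0.38, adjusted p = 0.0163), by DESeq2 (-0.37, adjusted p = 0.0386) and without 10 µM replicate 2 (-0.52, adjusted p = 0.0212). The count ratio of HNRNPH2 to HNRNPH1 was 0.154, 0.168, 0.216 and 0.165 in the controls, 0.249, 0.425 and 0.295 at 10 µM and 0.232 at 20 µM. The ratio was thus higher in each treated library than in each control, and was highest in 10 µM replicate 3, the library with the lowest HNRNPH1 level of its group. How reads shared by these copies were divided between the genes is not given in the sources used here.

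Of the remaining hnRNP genes, HNRNPF, HNRNPK, HNRNPLL, HNRNPR and HNRNPUL2 passed in neither step. HNRNPF, which like HNRNPH1 binds runs of G, stood at 482.9, 540.7, 578.6 and 491.9 CPM in the controls, 285.3, 495.1 and 415.8 at 10 µM and 374.9 at 20 µM. Replicate 2 was far below the other 10 µM libraries for HNRNPF, while replicate 3 was the low one for HNRNPH1. HNRNPF had a log2 fold change of -0.40 at 10 µM (SE 0.17, edgeR adjusted p = 0.148; -0.47 and 0.0218 with the block). HNRNPK, a KH-domain protein that binds C-rich sequences, stood at 1221, 1573, 1640 and 1369 CPM in the controls, 1196, 1254 and 1197 at 10 µM and 909.1 at 20 µM. Its log2 fold change was -0.26 (SE 0.12, edgeR adjusted p = 0.161; -0.33 and 0.00716 with the block) and then -0.44 (SE 0.18, adjusted p = 0.109). HNRNPUL2 had means of 279.7 ± 19.6 CPM (control, n = 4) and 281.5 ± 12.5 CPM (10 µM, n = 3) and a level of 221.6 at 20 µM. HNRNPLL was at 87.4 ± 24.6, 81.8 ± 9.19 and 66.5 CPM.

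HNRNPR, a relative of SYNCRIP, stood at 242.1, 479.5, 281.8 and 271.0 CPM in the controls, 221.3, 403.3 and 212.2 at 10 µM and 108.8 at 20 µM. Control 2 and 10 µM replicate 3 were high and the 20 µM library lowest. Its log2 fold change at 10 µM was -0.20 (SE 0.29, edgeR adjusted p = 0.696) and was 0.07 without control 2. The step from 10 to 20 µM was -1.38 (SE 0.48, adjusted p = 0.0618), and this step passed by limma-voom and without control 1, without control 2 or without 10 µM replicate 4, and stood at -0.85 (adjusted p = 0.247) with the block. A p that misses the threshold does not show that the levels of these 5 genes were equal.

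From 10 to 20 µM, 18 of the 32 members were lower (5 SRSF and 13 HNRNP) and 0 higher by edgeR, DESeq2 or limma-voom or at an unadjusted p under 0.05, where 14.6% of all 14857 genes were lower and 11.7% higher. Among the 6080 genes at least as abundant as the lowest tested member 25.0% were lower and 14.8% higher. The median log2 fold change was -0.72 for the members, from -1.44 (SRSF7) to -0.03 (SRSF4), and 0.01 for all genes. The step rests on 1 library, which is assumed to vary like the others and has no replicate check. That library is replicate 1, and control 1 was also low for the members, with a median log2 difference of -0.15 from the control mean. With the block the members' median was -0.48, from -1.21 to 0.26, and that of all genes -0.06. With the block 13 members were lower (11.0% of all genes and 17.1% of the abundant ones), and SRSF9, HNRNPH2, HNRNPH3, HNRNPL and HNRNPUL1 were no longer called. In all 15 alternatives run for this step, 13 genes kept their call: SRSF1, SRSF2, SRSF3, SRSF7, HNRNPA1, HNRNPA2B1, HNRNPA3, HNRNPAB, HNRNPC, HNRNPD, HNRNPDL, HNRNPM and HNRNPU. Both contrasts use the 10 µM libraries, so the values of a gene in the 2 panels of the plot of fold changes are not independent.

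**Figure D3:**
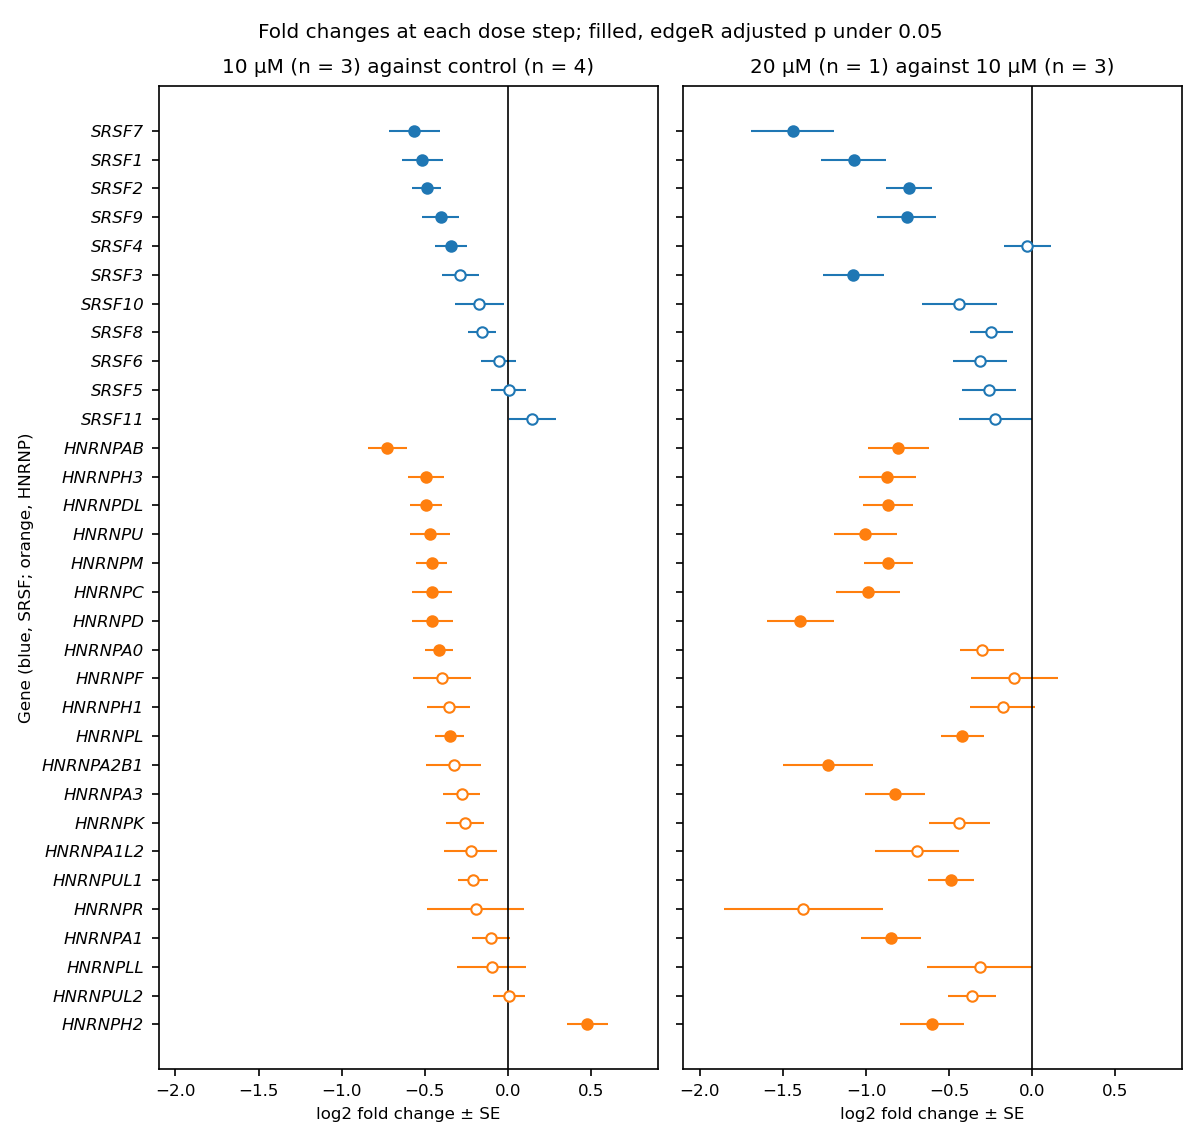
Log2 fold change ± SE of each tested member, 10 µM (n = 3) against control (n = 4) on the left and 20 µM (n = 1) against 10 µM on the right; filled points passed edgeR's test. On the left 14 filled points lie below 0 and 1 above it (HNRNPH2), and on the right all 18 filled points lie below 0.

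When the 4 treated libraries were set against the 4 controls without regard to dose, 3 of 32 members passed, all lower. Of 13101 tested genes 6.69% were lower and 7.47% higher. Of the 6080 at least as abundant as the lowest tested member 12.2% were lower and 6.53% higher. The 3 members were HNRNPAB (log2 fold change -0.88, SE 0.20, edgeR adjusted p = 0.0269), HNRNPA0 (-0.48, SE 0.11, adjusted p = 0.0318) and SRSF2 (-0.63, SE 0.17, adjusted p = 0.0427). The median log2 fold change was -0.43 for the members and 0.08 for all genes. With the replicate block 16 members were lower (10.4% of all genes and 18.3% of the abundant ones), the added ones being SRSF1, SRSF7, SRSF9, HNRNPA2B1, HNRNPA3, HNRNPC, HNRNPD, HNRNPDL, HNRNPH3, HNRNPK, HNRNPL, HNRNPM and HNRNPU. The count by edgeR was 0 without any single control or without 10 µM replicate 4, where 12 to 18 members had an unadjusted p under 0.05. It was 1 without 10 µM replicate 3, 8 without 10 µM replicate 2 and 15 (14 lower, HNRNPH2 higher) without the 20 µM library. In the fit without the 20 µM library 12.0% of all genes and 21.5% of the abundant ones were lower. The counts of the other leave-one-out fits have no share over all genes beside them. Within the digit-named libraries, whose treated libraries were all at 10 µM, 15 members were lower (11.4% of all genes and 19.9% of the abundant ones). Within the letter-named libraries, whose treated libraries were at 10 and 20 µM, edgeR called 0 of the 32 members and 0 of all 13956 genes. There 6 members and 2694 genes had an unadjusted p under 0.05. These subsets thus differ in dose as well as in naming.

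Most members have annotated transcripts of the kind that is degraded by surveillance. In GENCODE 29, 24 of the 32 tested members (75.0%) have a transcript classed as a target of nonsense-mediated decay, against 40.5% of 14503 tested genes with an entry, and the median number of annotated transcripts is 11 against 7. HNRNPU has 9 such transcripts and SRSF7 6, while HNRNPAB, HNRNPA0 and HNRNPH2 have 0. The counts sum all transcripts of a gene, so a change in the share of poison-exon transcripts was not measured. Another gene overlaps 16 of the 32 tested members in that annotation. Besides the pairs above, CBX3, on the opposite strand to HNRNPA2B1, stood at 454.0 ± 77.9, 428.8 ± 21.6 and 202.0 CPM at 0, 10 and 20 µM, and GATC, opposite SRSF9, at 79.3 ± 7.85, 65.4 ± 2.55 and 60.6 CPM (SD, n = 4 and 3, with a single library at 20 µM). NFE2L3, also opposite HNRNPA2B1, was at 23.1 ± 1.90, 19.0 ± 3.74 and 42.9 CPM in the same groups. Opposite HNRNPH3, RUFY2 was at 16.3 ± 1.56, 18.9 ± 2.88 and 27.1 CPM and PBLD at 1.66 ± 0.40, 2.38 ± 0.27 and 2.76 CPM. TGFB1, opposite HNRNPUL1, was at 190.0 ± 17.4, 207.5 ± 25.6 and 208.6 CPM.

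Genes around the SR and hnRNP proteins were described from 9 lists of 131 genes. Of the 130 tested at 10 µM, 42 were lower and 4 higher, with a median log2 fold change of -0.27, and 70 passed with the block (64 lower, 6 higher). The count was 30, 29, 26 and 26 without control 2, control 3, 10 µM replicate 3 and 10 µM replicate 4. At 10 µM 9.79% of all genes and 19.9% of the 6080 abundant ones were lower (15.2% and 29.6% with the block). From 10 to 20 µM 34 of the 130 were lower and 8 higher (20 and 12 with the block). In that step 14.6% of all genes and 25.0% of the abundant ones were lower (11.0% and 17.1% with the block). From 10 to 20 µM the share of the lists called lower was thus near that of the abundant genes, whereas at 10 µM it was larger. In treated against control 28 of 128 were lower and 3 higher, and 49 passed with the block (46 lower, 3 higher). There 6.69% of all genes and 12.2% of the abundant ones were lower (10.4% and 18.3% with the block).

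The enzymes that modify the members were split. SR proteins are phosphorylated in the cytoplasm by SRPK kinases and in the nucleus by CLK kinases, and TNPO3 carries them into the nucleus. Of these 8 genes 0 passed by edgeR at 10 µM, with 3 lower and 1 higher at an unadjusted p under 0.05, 2 lower by DESeq2 and 0 by limma-voom. With the block CLK1 (higher), SRPK1 and TNPO3 (lower) passed. CLK1 stood at 34.4, 30.4, 30.7 and 43.2 CPM in the controls, 38.8, 37.9 and 62.3 at 10 µM and 140.9 at 20 µM, and rose by 1.59 on the log2 scale (SE 0.28, edgeR adjusted p = 0.00412) from 10 to 20 µM. CLK3 also rose in that step (1.13, SE 0.16, adjusted p = 0.00158), named here after its value was seen. SRPK1 had means of 394.3 ± 87.7 CPM (control, n = 4) and 287.9 ± 44.3 CPM (10 µM, n = 3) and a level of 161.1 at 20 µM, and its log2 change at 10 µM was -0.46 (SE 0.18, edgeR adjusted p = 0.119; 0.00123 with the block). CLK4 was at 15.3 ± 1.26, 19.4 ± 3.43 and 29.2 CPM and passed in neither step (adjusted p = 0.163 and 0.089).

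Arginine methyltransferases modify the arginine-glycine repeats of many hnRNP proteins and, through PRMT5 with its partner WDR77, the Sm proteins of the snRNPs. Of 6 tested, 4 fell at 10 µM and 5 from 10 to 20 µM (2 with the block). WDR77 went from 268.1 ± 22.2 CPM (n = 4) to 139.9 ± 10.1 (n = 3), or -0.94 on the log2 scale (SE 0.11, edgeR adjusted p = 0.00136). PRMT1, the main source of asymmetric dimethylarginine, went from 387.5 ± 29.3 to 211.8 ± 31.8 CPM (log2 fold change -0.88, SE 0.12, adjusted p = 0.00308), and CARM1 from 135.5 ± 8.26 to 91.5 ± 10.4 CPM (-0.57, SE 0.11, adjusted p = 0.00839).

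The core spliceosome lists differed in their counts. Of 20 snRNP core proteins 13 fell at 10 µM (18 with the block) and 11 from 10 to 20 µM (7 with the block), with medians of -0.50 and -0.69. Among them PRPF31 (log2 fold change -0.74, SE 0.11, edgeR adjusted p = 0.00366), PRPF4 (-0.71, SE 0.10, adjusted p = 0.00316) and EFTUD2 (-0.64, SE 0.11, adjusted p = 0.00639), components of the U4/U6 and U5 particles, fell at 10 µM and did not pass from 10 to 20 µM (adjusted p = 0.545, 0.065 and 0.333). Of 13 genes for branch site recognition 11 fell at 10 µM and 4 in the further step (11 and 1 with the block), with medians of -0.48 and -0.20. SF3A1 (-0.59, SE 0.08, adjusted p = 0.00316), SF1 (-0.48, SE 0.09, adjusted p = 0.00896) and SF3B4 (-0.45, SE 0.09, adjusted p = 0.0104) fell at 10 µM and did not pass from 10 to 20 µM (adjusted p = 0.292, 0.869 and 0.355). Of 17 genes of the catalytic spliceosome 2 fell and 2 rose at 10 µM (7 and 2 with the block), and 3 fell and 1 rose from 10 to 20 µM (1 and 2 with the block). SYF2 rose from 40.6 ± 3.52 to 67.7 ± 8.60 CPM (0.73, SE 0.12, adjusted p = 0.00472) and SLU7, a factor of the second splicing step, from 63.4 ± 5.25 to 90.2 ± 12.6 CPM (0.50, SE 0.12, adjusted p = 0.0206), while PRPF19 fell from 398.1 ± 48.1 to 242.6 ± 31.0 CPM (-0.72, SE 0.13, adjusted p = 0.00762). DHX16 was the other that fell (-0.39).

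The last lists hold relatives of the members under other symbols, decay factors and other regulators. Of 10 hnRNP proteins with other names 3 fell at 10 µM (5 with the block), among them PTBP1, the polypyrimidine tract binding protein (log2 fold change -0.38, SE 0.10, edgeR adjusted p = 0.0237), and SYNCRIP (-0.50, SE 0.13, adjusted p = 0.0271). Of 23 SR-related proteins 4 fell (7 with the block), near the share of the 6080 abundant genes that fell (19.9%, or 29.6% with the block). Among the 4 were TRA2B (-0.61, SE 0.12, adjusted p = 0.0101), U2AF2, which binds the polypyrimidine tract (-0.48, SE 0.14, adjusted p = 0.038), and RNPS1 (-0.45, SE 0.11, adjusted p = 0.0222). Of 14 genes of nonsense-mediated decay and the exon junction complex 5 fell at 10 µM. MAGOH (-0.83, SE 0.10, adjusted p = 0.00195), EIF4A3 (-0.85, SE 0.12, adjusted p = 0.00307) and UPF1, the helicase of decay (-0.58, SE 0.11, adjusted p = 0.00831), led them. Of 19 other alternative splicing regulators 2 rose and 0 fell at 10 µM (3 and 4 with the block). MBNL2, a muscleblind protein, stood at 13.2, 13.2, 10.5 and 14.1 CPM in the controls, 33.8, 45.0 and 50.1 at 10 µM and 118.0 at 20 µM, rising by 1.75 (SE 0.16, adjusted p = 0.00053) and then 1.44 (SE 0.22, adjusted p = 0.00237). CELF2 rose at 10 µM (0.98, SE 0.19, adjusted p = 0.00944) and fell from 10 to 20 µM (-3.15, SE 0.36, adjusted p = 0.000659), at 62.4 ± 9.41, 123.3 ± 32.8 and 14.1 CPM. RBM10 and RBM4, the other genes of that list named by rule, did not pass at 10 µM (adjusted p = 0.0516 and 0.0698; RBM10 0.024 with the block).

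**Figure D4:**
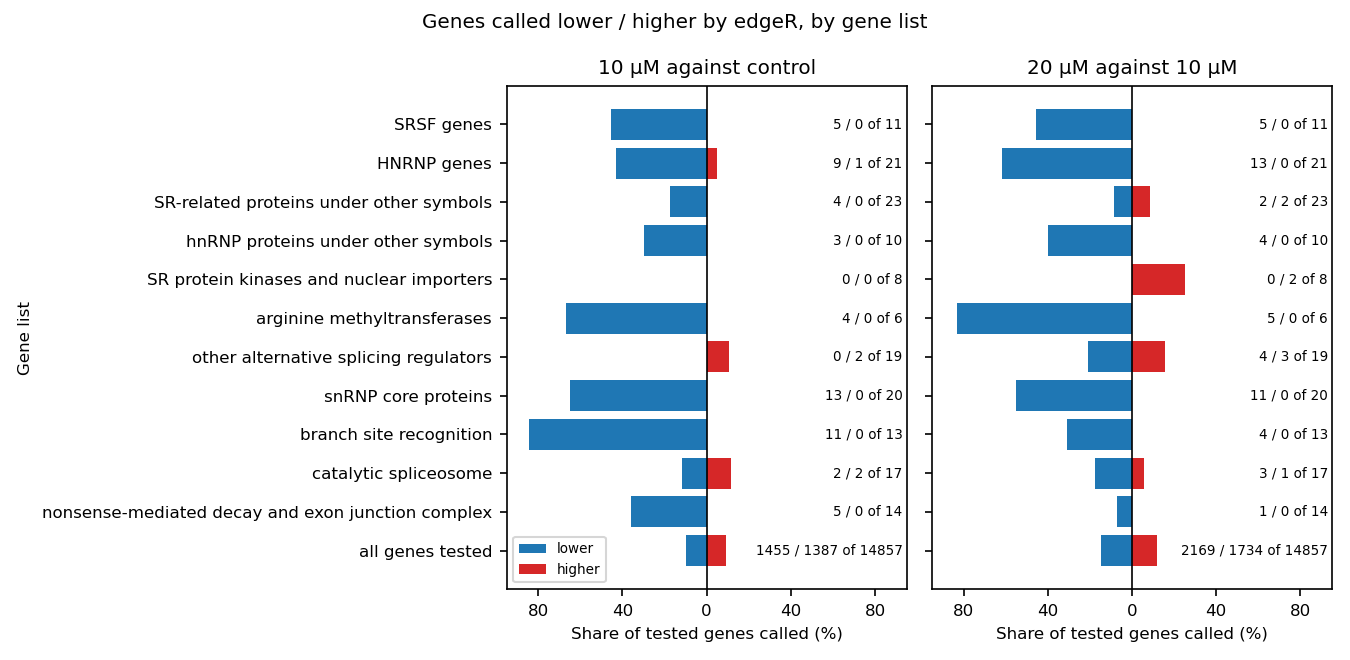
Share of tested genes called lower (blue, to the left) and higher (red, to the right) in each list and over all genes, at 10 µM against control and 20 µM against 10 µM; the figures at the right give lower / higher of tested. Of 11 SRSF genes 5 are called lower in each panel, and of 21 HNRNP genes 9 at the left and 13 at the right, while the 8 kinases and importers have no lower call in either.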

How the data were processed

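RNA was measured in 8 K562 libraries by sequencing of ribosome-depleted, randomly primed RNA, per the labels' protocols. The authors deposited 1 table of integer read counts for genes. The submitters' processing notes name HISAT2, StringTie, limma, DESeq2 and bcl2fastq 2.0 with the hg38 build. Which tool did what, the annotation and the strand setting are not given in the sources used here. Library sizes leave out 9 lines that name no gene.

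In R 4.3.3, edgeR 4.0.16 kept genes by filterByExpr, and TMM factors and a two-sided quasi-likelihood test followed. Benjamini-Hochberg adjustment at 0.05 covered every gene tested. Each SE is the absolute log2 fold change divided by the square root of F. A fit with 3 dose levels gave 10 µM against control and 20 µM against 10 µM, and a fit of 4 against 4 libraries gave treated against control. DESeq2 1.42.0, limma 3.58.1 (voom), other scalings and filters, a replicate block, the naming pattern and each library left out were alternatives. The procedure was tested on simulated data. TPM used exon lengths of GENCODE 29.

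Replicate numbers in the labels recur in control and treated groups. Libraries of the same number deviated together from their group means, with correlations across genes of 0.45, 0.25, 0.39 and 0.26 for replicates 1 to 4. For this check the treated libraries of both doses were taken as 1 group. The 20 µM library is replicate 1, so its deviation includes the dose step, which also enters the mean of the treated group. Control 2 correlated better with a treated library of another number, the other controls best with their own. Every correlation exceeded 0.1, the rule used, so the numbers were taken to pair the libraries. Libraries of the same number also share letter or digit names, so these correlations cannot tell pairing by number from the naming pattern. Blocked values, which rest on that pairing, stand beside results whose call they change. The members and gene lists were chosen with earlier results of these data known. All members are named, with full statistics for those past the threshold in any contrast; from each other list the 3 tested genes with the smallest p in treated against control are named, except 1 gene that is not reported here, and CLK3, CELF2, DHX16, TNPO3 and overlapping genes were added after their values were seen. Depth limits precision, and floors of 3 counts cover counting error only.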

Additional observations from a re-analysis of the deposited data

Results flagged for a closer look

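HNRNPR in control 2 stood apart from the other controls, at 479.5 CPM against 242.1, 281.8 and 271.0 CPM. The gap to the nearest control was 0.833 of the range of the 4 controls, above Dixon's 95% critical value. Of the 32 members tested this way 1 passed, and chance alone passes about 1 in 20 groups. Control 2 and 10 µM replicate 3 (403.3 CPM) both have digit names, as have control 3 and 10 µM replicate 2 (281.8 and 221.3 CPM), which were not high.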

How the results depend on the processing

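The number of members past the threshold in treated against control, 3 by edgeR, was 14 by DESeq2, 5 with relative log expression factors, 6 with a filter of 1 CPM, 16 with the replicate block, 13 with the naming pattern as a term, 15 in the digit-named and 0 in the letter-named libraries (6 at an unadjusted p under 0.05), and 0 to 15 when each library was left out in turn. The share of all genes called lower moved too, from 6.69% to 10.4% with the block and 11.4% in the digit-named libraries. It was 12.0% without the 20 µM library. No such share is given for the DESeq2, scaling, filter, naming term and other leave-one-out counts. At 10 µM against control, 15 became 5 to 16 when each library was left out and lay within 1.5 times of 15 elsewhere (22 with the block). From 10 to 20 µM, 18 stayed between 13 and 20 in all 15 alternatives. The other splicing genes in treated against control, 31, were 52 by DESeq2, 49 with the replicate block, 54 with the naming pattern and in the digit-named libraries, 0 in the letter-named libraries (38 at an unadjusted p under 0.05) and 1 to 53 with each library left out. At 10 µM their 46 became 70 with the replicate block, 70 with the naming pattern and 26 to 53 with each library left out. The causes were not tested, and the subsets hold fewer libraries. The block changed no call of a member beyond those named in the results. No called fold change of a member reversed. The fold changes that reversed had not passed, and follow on the log2 scale with the range over the fits that leave out each library.

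From 10 to 20 µM, SRSF4 stood at 0.0259 with the 1 CPM filter, 0.0245 with the replicate block, 0.0227 with the naming term and -0.0920 to 0.0280 with a library left out. SRSF5 in treated against control was 0.00976 with upper-quartile factors and -0.108 to 0.00637 with a library left out. SRSF5 at 10 µM was -0.0121 by DESeq2, -0.0122 with relative log expression factors, -0.0523 with the replicate block, -0.00805 with the naming term, -0.133 in digit-named libraries and -0.0542 to 0.0625 with a library left out. SRSF11 was -0.00836 to 0.184 in treated against control with a library left out and 0.000866 from 10 to 20 µM with the naming term. HNRNPF from 10 to 20 µM was 0.0803 with the replicate block and -0.303 to 0.0663 with a library left out. HNRNPLL was 0.00461 in treated against control in letter-named libraries and -0.228 to 0.0445 at 10 µM with a library left out. HNRNPLL was 0.259 from 10 to 20 µM with the replicate block and 0.0399 with the naming term. HNRNPR at 10 µM was -0.566 to 0.0698 with a library left out. HNRNPUL2 was -0.129 to 0.000402 in treated against control with a library left out. HNRNPUL2 at 10 µM was -0.0110 by DESeq2, -0.0110 with relative log expression factors, -0.0431 with the replicate block, -0.0152 with the naming term, -0.0335 in digit-named libraries and -0.0423 to 0.0384 with a library left out.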
